A study of Mus musculus with 6 samples.

Results

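The actins and tropomyosins, the proteins of the thin filament of muscle and of the actin filaments of every other cell, were examined by RNA-Seq on day 5 of differentiation in C2C12 cells, mouse myoblasts that form myotubes in low serum. The members were chosen by name as the 6 mouse actin genes (*Acta1*, *Actc1*, *Acta2*, *Actg2*, *Actb* and *Actg1*) and the 4 tropomyosin genes (*Tpm1* to *Tpm4*), which are 10 of the 23231 genes with a count in any library. Lentivirus was given to both groups (multiplicity of infection 100), followed by puromycin selection (2 μg/ml) and differentiation in 2% horse serum. The 3 libraries of dCas9-KRAB cells express a nuclease-dead Cas9 fused to the KRAB repressor domain with no enhancer guide. The 3 libraries of dCas9-KRAB-En5 cells carry in addition 2 single guide RNAs (sgRNAs) that direct the repressor to Myog-En5, an enhancer of the myogenic transcription factor gene *Myog*. The comparison asks how actin and tropomyosin expression differs once this enhancer is repressed. Both are drug-selected populations of 1 cell line, and the labels do not say that libraries of a group came from separate cultures, so the p-values may measure technical spread only.

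Different cells use different members of both families. *Acta1* and *Actc1* encode the skeletal and cardiac muscle actins of the sarcomere, and *Actc1* is also used in embryonic skeletal muscle and in young myotubes. *Acta2* and *Actg2* encode the vascular and enteric smooth muscle actins, and *Acta2* is also expressed transiently in differentiating myoblasts and in activated fibroblasts. *Actb* and *Actg1* encode the cytoplasmic actins of all cells. Tropomyosins are coiled coils that lie along the actin filament. In striated muscle they hold the troponin complex and block myosin at rest, and in other cells they help determine which proteins bind a filament. *Tpm1*, *Tpm2* and *Tpm3* yield muscle and cytoplasmic products by alternative promoters and splicing, whereas *Tpm4* is chiefly known for cytoplasmic products, so gene-level values do not separate these products.

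The actin genes are close copies, which is why their sequences are shown before their values. The first coding bases of the 6 genes (5′ to 3′, GENCODE M21 transcripts) are given with capitals at each base that differs from *Acta1* when the coding sequences are lined up from their 3′ ends:
Acta1: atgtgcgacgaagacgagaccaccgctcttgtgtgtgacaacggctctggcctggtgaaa
Actc1: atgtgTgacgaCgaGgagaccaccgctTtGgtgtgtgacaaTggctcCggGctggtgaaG
Acta2: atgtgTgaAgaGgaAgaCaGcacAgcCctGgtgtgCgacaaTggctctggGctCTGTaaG
Actg2: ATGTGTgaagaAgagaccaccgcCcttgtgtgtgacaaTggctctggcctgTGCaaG
Actb: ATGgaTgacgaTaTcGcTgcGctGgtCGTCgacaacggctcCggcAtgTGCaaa
Actg1: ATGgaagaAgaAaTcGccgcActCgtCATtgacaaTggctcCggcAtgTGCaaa
The start of the coding sequence is where the isoforms differ in length. *Acta1*, *Actc1* and *Acta2* have 1134 coding bases, *Actg2* has 1131, and *Actb* and *Actg1* have 1128. Over the whole coding sequence the pairs were 81.65% to 88.65% identical, with *Actb* and *Actg1* the most alike (88.65%) and *Acta1* and *Actc1* at 86.16%.

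This likeness bears on how surely reads are assigned. The share of a gene's 50-base words (every run of 50 bases in its transcripts) that also occur in another gene's transcripts was 0% for *Actc1*, *Actg2*, *Tpm1* and *Tpm2*, 0.326% for *Acta2*, 2.02% for *Acta1* and 9.12% for *Actb*. It was 37.4% for *Actg1*, mostly shared with processed copies such as Gm12715, 23.2% for *Tpm3*, shared with the *Tpm3*-related gene *Tpm3-rs7*, and 15.7% for *Tpm4*. With words of 100 bases the shares were lower, at 29.9% for *Actg1*, 15.8% for *Tpm3*, 9.22% for *Tpm4* and 0.64% for *Actb*. For *Acta1* and *Acta2* they were 0%. The values of *Actg1*, *Tpm3* and *Tpm4* are therefore less certain than those of the muscle actins and *Tpm2*. *Acta1* and *Actc1* overlap the opposite-strand genes Gm20388 and A530058N18Rik, and without a known strand setting reads of such pairs cannot be told apart. Neither overlapping gene was found by name among the genes with a count in any library.

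Promoter sequence is shown for 4 members, 3 that hold an exact CArG box, the site of serum response factor (SRF), and *Tpm2*, a muscle-rich member that holds none. The stretches hold no annotated exon base of their gene in GENCODE M21 (RefSeq promoters, GRCm38.p6, 5′ to 3′ along the gene). Those of *Actc1* and *Tpm2* lie within the annotated gene, downstream of its most upstream start, and capitals mark a CArG box or the same pattern with 1 base off in its A/T core:
Acta1, chr8:123894776-123894895, minus strand: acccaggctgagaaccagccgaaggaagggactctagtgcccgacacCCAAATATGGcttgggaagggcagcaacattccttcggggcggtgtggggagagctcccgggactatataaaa
Actc1, chr2:114052888-114052995, minus strand: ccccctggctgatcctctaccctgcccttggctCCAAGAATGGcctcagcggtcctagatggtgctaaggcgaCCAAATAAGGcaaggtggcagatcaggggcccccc
Actg1, chr11:120348543-120348615, minus strand: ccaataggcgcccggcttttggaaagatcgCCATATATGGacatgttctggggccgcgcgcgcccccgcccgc
Tpm2, chr4:43523596-43523674, minus strand: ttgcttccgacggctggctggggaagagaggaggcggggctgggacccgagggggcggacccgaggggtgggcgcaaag
Of the 10 members, 8 had a promoter in the table. *Actb* and *Actg2* did not. In the 250 bases before the RefSeq start, the exact CArG box lay 73 bases upstream in *Acta1*, 47 in *Actc1* and 90 in *Actg1*, and 1.467% of all 32851 promoter windows held it. The form with 1 base off, held by 7.245% of windows, was found in *Actc1*, *Acta1*, *Acta2* and *Tpm3*. CAGCTG, an E-box of the kind bound by myogenic factors, was in *Acta1*, *Acta2*, *Tpm2* and 1 of the *Tpm3* windows, against 13.001% of windows, and CATTCC, the core letters of a TEAD site, was in *Acta1*, *Acta2* and *Tpm1*, against 12.642%. Each search covered both strands, and CAGCTG is a case of CANNTG, which 66.217% of windows held. An exact CArG box stood before genes whose levels differed between the groups and before *Actg1*, whose level did not pass the test.

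The libraries were checked first. *Myog*, whose enhancer was targeted, stood at 1065, 1224 and 1118 TPM (transcripts scaled to a library total of 1000000) in replicates 1 to 3 of dCas9-KRAB and at 0.379, 0 and 0 TPM in those of dCas9-KRAB-En5 (12, 0 and 0 counts), in the direction of the labels. Depth ranged from 31831093 to 73988425 counts per library. dCas9-KRAB-En5 replicate 3 stood apart, with 13991 genes listed against 17084 to 19395 elsewhere and 24.9% of counts in ribosomal protein genes against 10.9% to 19.9%. Among 8 skeletal muscle markers, the summed level was 10973 to 12241 TPM in dCas9-KRAB and 8.10 to 16.1 TPM in dCas9-KRAB-En5. The paper counts most of them as targets of the *Myog* protein or as late differentiation genes, so their sum does not speak to myoblast identity. *Myod1*, a myogenic regulatory factor among the 8, stood at 33.8 to 111 TPM in dCas9-KRAB. It stood at 0 to 0.0761 TPM in dCas9-KRAB-En5 and so lent the labelled identity little marker RNA there. Of 10 macrophage markers none was at 0 in any library and 7 stood at 10 TPM or more in all 6, with sums of 3708 to 4386 TPM in dCas9-KRAB and 5264 to 8182 TPM in dCas9-KRAB-En5. Their part in the actin and tropomyosin values was not tested. In bulk RNA, fewer muscle cells and less muscle RNA per cell cannot be told apart.

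Counts were compared with edgeR's quasi-likelihood test over 14378 genes, as dCas9-KRAB-En5 over dCas9-KRAB, and a gene was called when its Benjamini-Hochberg adjusted p did not exceed 0.01 and its log2 fold change reached 1 in either direction. Of the 10 members 9 passed the low-count filter, and 4 of these (*Acta1*, *Actc1*, *Acta2* and *Tpm2*) fell in dCas9-KRAB-En5, where 4.67% of all tested genes were called lower. None was called higher by edgeR, against 1.52% of all genes, nor by DESeq2 (5.88% of all genes) or limma on log2(TPM + 1) (0.223%), and 0 were higher at an unadjusted p under 0.05. DESeq2 called 5 members lower, against 8.66% of all genes, and limma 4, against 3.35%. *Actc1* passed the filter through the dCas9-KRAB libraries alone, so it had to be lower in dCas9-KRAB-En5 and its call must be read with that. *Actg2* did not pass. The median log2 fold change of the 9, *Actc1* among them, was -1.92 and that of all tested genes 0.08. The TPM of 5 members (those 4 and *Tpm1*) did not overlap between the groups, with every dCas9-KRAB-En5 library below every dCas9-KRAB library, as for 19.7% of all tested genes. No member had every dCas9-KRAB-En5 library above every dCas9-KRAB library, as 7.76% of tested genes had.

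**Figure D1:**
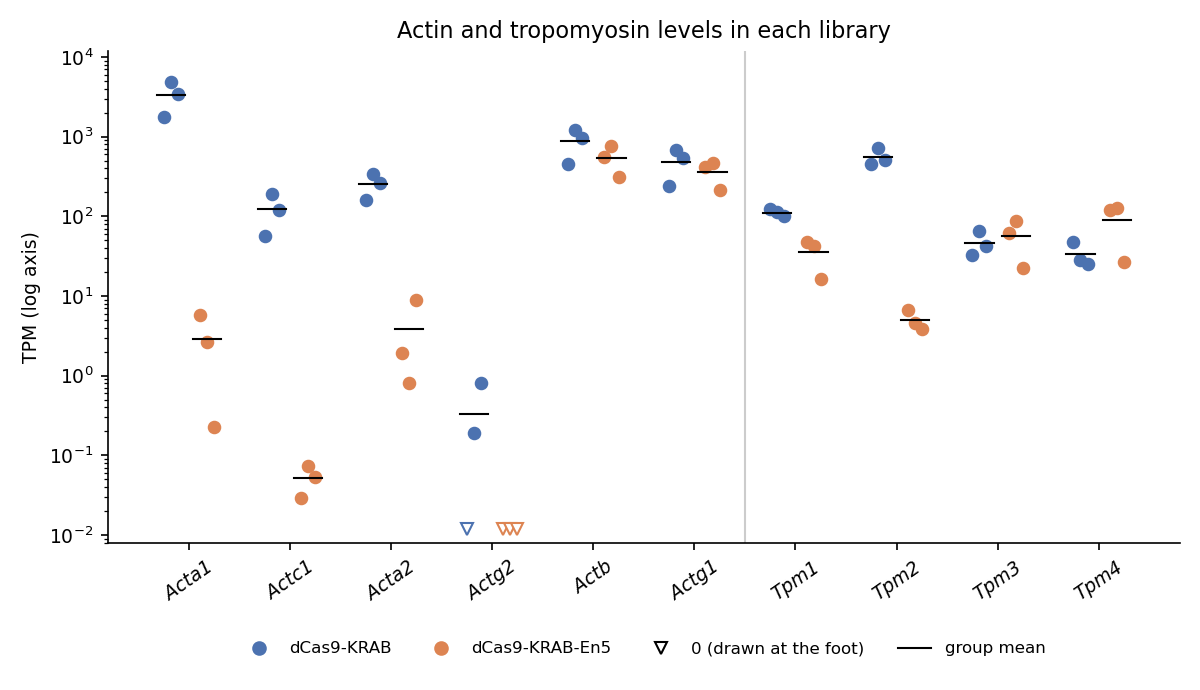
TPM (log axis) of the 6 actins and 4 tropomyosins in each of the 6 libraries, with a line at the group mean and open triangles for a value of 0. The dCas9-KRAB-En5 points of *Acta1*, *Actc1*, *Acta2*, *Tpm1* and *Tpm2* lie below all dCas9-KRAB points, and those of *Actb*, *Actg1*, *Tpm3* and *Tpm4* overlap them.

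The skeletal muscle actin *Acta1* (chr8:123891769-123894751, minus strand, GRCm38) was the most abundant member in dCas9-KRAB. It stood at 1759, 4803 and 3450 TPM in replicates 1 to 3 of dCas9-KRAB and at 5.81, 2.65 and 0.228 TPM in those of dCas9-KRAB-En5. Even the nearest libraries of the groups were 303-fold apart, and the last dCas9-KRAB-En5 library rested on 8 counts. Its log2 fold change was -10.58 (SE 1.07, 95% interval -12.91 to -8.24, edgeR adjusted p = 9.70e-05), a 1526-fold lower level. The gene ranked 29th to 111th by TPM in the dCas9-KRAB libraries and between 7332nd and 11939th in dCas9-KRAB-En5. Leaving out dCas9-KRAB-En5 replicate 1 gave -11.58, and no library left out ended the call.

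The cardiac and embryonic muscle actin *Actc1* (chr2:114047282-114053548, minus strand) stood at 57.2, 191 and 121 TPM in dCas9-KRAB. In dCas9-KRAB-En5 it had 1, 2 and 2 counts, or 0.0292, 0.0729 and 0.0540 TPM. All 3 libraries of dCas9-KRAB-En5 were thus within the 3 counts taken as the floor, and the groups were far apart. Over the summed counts of each group, 22813 against 5, the level was 2706-fold lower, with a 95% counting interval of 1159 to 8334 that covers counting error only. It fell at an edgeR adjusted p of 1.82e-05, and the fitted log2 fold change of -11.27 depends on the prior count. *Actc1* kept close to *Acta1* in dCas9-KRAB, where *Acta1* was 25.2 to 30.8 times higher in TPM in each library.

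The vascular smooth muscle actin *Acta2* (chr19:34241090-34255590, minus strand) stood at 160, 339 and 263 TPM in dCas9-KRAB and at 1.93, 0.806 and 8.79 TPM in dCas9-KRAB-En5. The groups did not overlap, but the dCas9-KRAB-En5 libraries differed among themselves, and replicate 3, which held the least *Acta1*, held the most *Acta2* (442 counts against 90 and 30). The log2 fold change was -5.56 (SE 1.10, 95% interval -7.95 to -3.17, edgeR adjusted p = 0.00644). Without dCas9-KRAB-En5 replicate 3 it was -8.09. The call was lost when any 1 of the dCas9-KRAB libraries was left out (adjusted p 0.0495, 0.0236 and 0.0111 without replicates 1, 2 and 3), while the direction stayed. Over all settings tried for *Acta2*, edgeR, DESeq2 and limma adjusted p-values ran from 6.84e-15 to 0.0495.

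The other smooth muscle actin, *Actg2* (chr6:83512905-83536265, minus strand), was hardly present. It had 0, 11 and 56 counts in dCas9-KRAB (0, 0.189 and 0.803 TPM) and 0 counts in every dCas9-KRAB-En5 library. The groups overlapped at 0. Over the summed counts the level in dCas9-KRAB-En5 was at least 13.2-fold lower, taken against a floor of 3 counts over the group. Replicate 3 of dCas9-KRAB held 56 of the 67 counts, and without it the bound was 3.67-fold. The gene did not pass the low-count filter. It was not called by edgeR without that filter (adjusted p = 0.0283) or by DESeq2 (adjusted p = 0.0344). Of 6 smooth muscle markers, *Myocd* and *Lmod1* were not listed, and *Myh11*, *Cnn1* and *Tagln* did not exceed 0.0310, 0.155 and 0.363 TPM in any library. The remaining marker, *Smtn*, stood at 7.21 to 21.7 TPM in dCas9-KRAB and 2.02 to 5.04 TPM in dCas9-KRAB-En5, and the summed level of the list was 7.25 to 22.1 TPM and 2.02 to 5.39 TPM. The part of such cells in the *Acta2* values was not tested. Markers of fibroblasts, which can also express *Acta2*, summed to 70.3 to 206 TPM in dCas9-KRAB and 20.9 to 39.2 TPM in dCas9-KRAB-En5, and their part in the *Acta2* values was not tested.

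The cytoplasmic actins did not pass the test. *Actb* (chr5:142903115-142906754, minus strand), β-actin, stood at 460, 1217 and 961 TPM in dCas9-KRAB and at 558, 764 and 315 TPM in dCas9-KRAB-En5. *Actg1* (chr11:120345690-120348542, minus strand), γ-actin, stood at 240, 683 and 541 TPM and at 413, 471 and 213 TPM. The groups overlapped for both genes, and the lowest libraries were replicate 1 of dCas9-KRAB and replicate 3 of dCas9-KRAB-En5. The log2 fold change was -0.88 for *Actb* (SE 0.50, 95% interval -1.97 to 0.20, edgeR adjusted p = 0.239) and -0.60 for *Actg1* (SE 0.49, 95% interval -1.68 to 0.48, adjusted p = 0.425). These intervals reach from about a 4-fold lower *Actb* level (0.256 of dCas9-KRAB) to a slightly higher one (1.15 of dCas9-KRAB), so a missed cutoff does not show that the groups were alike. With GC and length offsets the *Actg1* value was 0.03, above 0.

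The make-up of actin RNA, which does not depend on library scaling, differed between the groups. The striated muscle actins *Acta1* and *Actc1* held 67.9%, 69.0% and 66.9% of summed actin TPM in replicates 1 to 3 of dCas9-KRAB and 0.596%, 0.220% and 0.0524% in dCas9-KRAB-En5. That is 67.9% ± 1.07 against 0.289% ± 0.278 (SD, n = 3 each). *Acta1* alone held 65.6% ± 0.891 in dCas9-KRAB. The smooth muscle actins held 5.21% ± 0.678 and 0.634% ± 0.872, and the cytoplasmic actins 26.9% ± 1.12 and 99.1% ± 0.712. None of these 3 shares overlapped between the groups. The dCas9-KRAB shares lay within 2.13 percentage points of each other although the summed actin TPM of those libraries ran from 2676 to 7233.

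**Figure D2:**
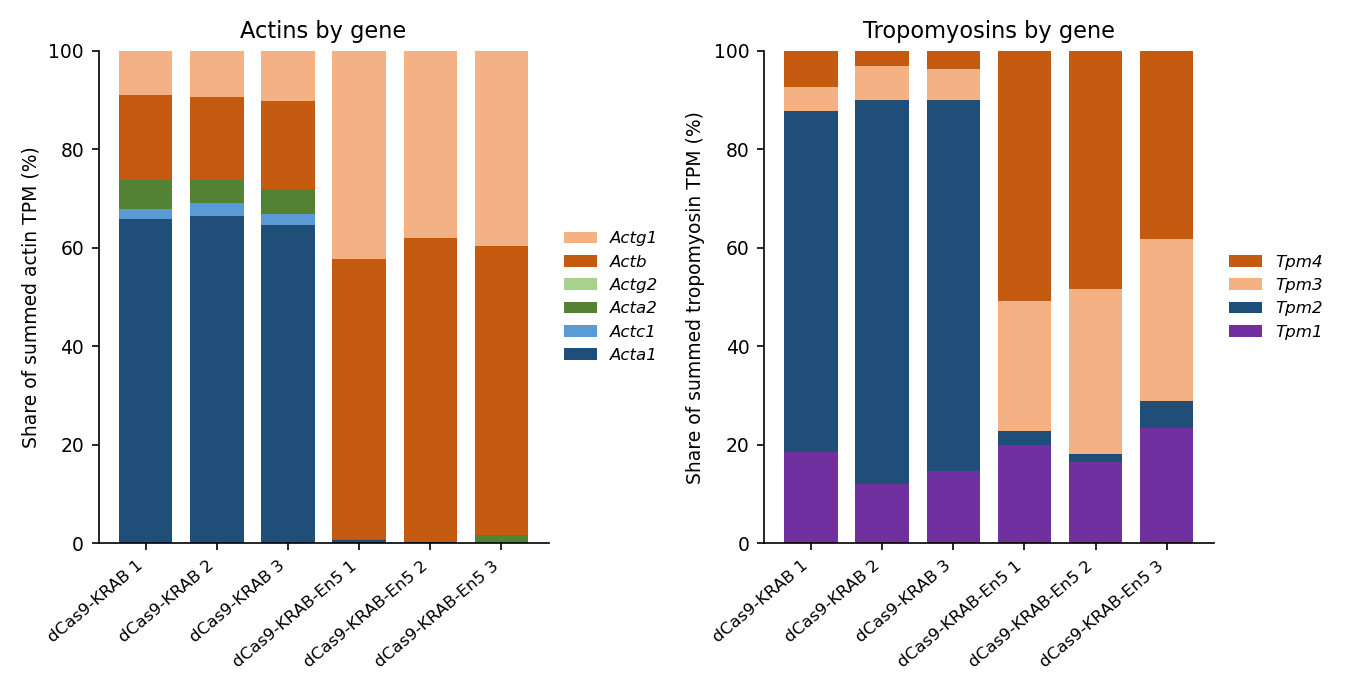
Share (%) of summed actin TPM (left) and of summed tropomyosin TPM (right) held by each gene in each library. *Acta1* holds most of the actin bar in the 3 dCas9-KRAB libraries and *Actb* with *Actg1* nearly all of it in the 3 dCas9-KRAB-En5 libraries. The share of *Tpm2* is smaller and those of *Tpm3* and *Tpm4* are larger in dCas9-KRAB-En5, as shares of a smaller sum.

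Actin RNA as a whole was 2676, 7233 and 5337 TPM in dCas9-KRAB and 979, 1238 and 537 TPM in dCas9-KRAB-En5, without overlap. *Acta1* exceeded *Actb* by 3.82, 3.95 and 3.59 times in the dCas9-KRAB libraries, a narrow range for genes that varied by 2.73-fold (*Acta1*) and 2.65-fold (*Actb*) across them. In dCas9-KRAB-En5 the same ratio was 0.0104, 0.00347 and 0.000723. *Actg1* was below *Actb* in all 6 libraries, at 0.521 to 0.564 of its level in dCas9-KRAB and 0.616 to 0.740 in dCas9-KRAB-En5, ranges that did not overlap. As *Actg1* shares 37.4% of its 50-base words with other genes, how reads of those copies were counted bears on this ratio and was not tested.

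Among the tropomyosins, *Tpm2* (chr4:43514711-43523765, minus strand), which encodes β-tropomyosin of skeletal and smooth muscle, had the largest difference. It stood at 455, 725 and 513 TPM in dCas9-KRAB and at 6.70, 4.54 and 3.85 TPM in dCas9-KRAB-En5. The 2 groups were far apart and each was tight, with coefficients of variation of 25.2% and 29.6%. It fell by 6.90 on the log2 scale (SE 0.61, 95% interval -8.24 to -5.56, edgeR adjusted p = 3.96e-05), a 119-fold lower level, and the call held without any 1 library.

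*Tpm1* (chr9:67022590-67049406, minus strand), which encodes α-tropomyosin of fast and cardiac muscle as well as cytoplasmic products, stood at 122, 112 and 99.9 TPM in dCas9-KRAB and at 47.3, 42.8 and 16.3 TPM in dCas9-KRAB-En5. No library overlapped, yet the gene missed the cutoff, with a log2 fold change of -1.92 (SE 0.45, 95% interval -2.90 to -0.94, edgeR adjusted p = 0.0145). With the replicate number as a block it was called lower (-1.93, adjusted p = 0.00691), as it was by DESeq2 (-1.97, adjusted p = 0.000133), with no low-count filter, with GC and length offsets (-2.19, adjusted p = 0.00286) and without dCas9-KRAB-En5 replicate 3 (adjusted p = 0.00203). Over all settings its adjusted p ran from 0.000133 to 0.0765. With the block 5 members were called lower, where 6.79% of all tested genes were, and 0 higher, where 3.94% were.

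*Tpm3* (chr3:90072649-90100902, plus strand), the source of slow-fiber α-tropomyosin and of common cytoplasmic products, stood at 32.3, 65.0 and 42.1 TPM in dCas9-KRAB and at 62.2, 86.6 and 22.8 TPM in dCas9-KRAB-En5. The groups overlapped fully in range, with a log2 fold change of 0.01 (SE 0.44, 95% interval -0.96 to 0.98, edgeR adjusted p = 0.991) whose sign changed with other scalings. Its related gene *Tpm3-rs7* (chr14:113314608-113316754, plus strand), which shares 69.4% of its 50-base words with *Tpm3*, was listed at 87.7, 206 and 122 TPM and at 251, 369 and 99.0 TPM, 2.71 to 4.35 times the *Tpm3* level in every library. Reads of the pair may be split between them, and the *Tpm3-rs7* difference did not pass the test either (log2 fold change 0.51, SE 0.46, adjusted p = 0.472).

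*Tpm4* (chr8:72134975-72153142, plus strand), the cytoplasmic tropomyosin, stood at 47.8, 28.2 and 25.3 TPM in dCas9-KRAB and at 120, 126 and 26.7 TPM in dCas9-KRAB-En5. It was the 1 member of which 2 dCas9-KRAB-En5 libraries lay far above all dCas9-KRAB libraries, while replicate 3 fell within their range. The log2 fold change was 1.04 (SE 0.49, 95% interval -0.03 to 2.12, edgeR adjusted p = 0.165), and no setting called it. Its adjusted p ran from 0.0203 with GC and length offsets to 0.522. The opposite-strand genes Gm16091 and Gm26586 overlap *Tpm4*, and whether counting used strand is not given in the sources used here. They held 53 and 0 counts in dCas9-KRAB and 221 and 40 in dCas9-KRAB-En5, against 14890 and 22520 counts of *Tpm4*. The deposited TPM of *Tpm4* rests on a length of 4269 bases, 1.94 times the 2203 bases of its exons in GENCODE M21, so its TPM may be understated against the other members.

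**Figure D3:**
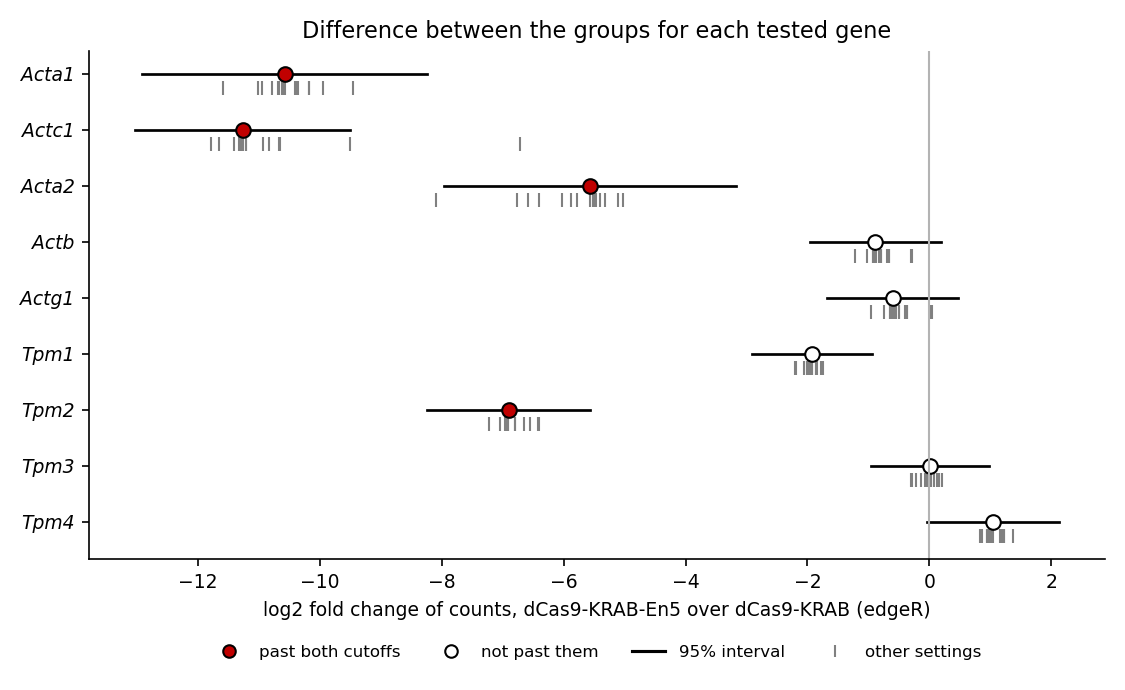
log2 fold change of counts (dCas9-KRAB-En5 over dCas9-KRAB, edgeR) of the 9 tested members with 95% intervals, filled where past both cutoffs, and grey ticks for the other settings. *Acta1*, *Actc1*, *Acta2* and *Tpm2* lie at -5.56 or below, *Tpm1* at -1.92 is open, and the intervals of *Actb*, *Actg1*, *Tpm3* and *Tpm4* cross 0.

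The make-up of tropomyosin RNA differed between the groups as well. *Tpm2* held 69.2%, 77.9% and 75.4% of summed tropomyosin TPM in dCas9-KRAB and 2.84%, 1.75% and 5.52% in dCas9-KRAB-En5. Without overlap the other way, *Tpm3* held 6.03% ± 1.04 and 30.8% ± 3.84, and *Tpm4* 4.68% ± 2.28 and 45.8% ± 6.60 (SD, n = 3 each). *Tpm1* held 18.6%, 12.0% and 14.7% in dCas9-KRAB and 20.1%, 16.5% and 23.5% in dCas9-KRAB-En5, which overlapped, although its level was lower in every dCas9-KRAB-En5 library. With the GENCODE length for *Tpm4*, its share was 8.63% ± 4.01 and 61.9% ± 6.40, and the *Tpm2* share 71.1% ± 5.70 and 2.40% ± 1.49. Summed tropomyosin RNA was 658, 930 and 680 TPM in dCas9-KRAB and 236, 260 and 69.6 TPM in dCas9-KRAB-En5. The shares of *Tpm3* and *Tpm4* were higher while their levels did not pass the test, since a share also moves with the rest of its family.

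On the TPM scale, which allows for length, the order of mean levels in dCas9-KRAB was *Acta1* (3337), *Actb* (879), *Tpm2* (564), *Actg1* (488), *Acta2* (254), *Actc1* (123), *Tpm1* (111), *Tpm3* (46.5), *Tpm4* (33.8) and *Actg2* (0.331). Only the steps from *Acta1* to *Actb*, from *Tpm1* to *Tpm3* and from *Tpm4* to *Actg2* were free of overlap between the libraries of neighboring genes. Compared within each library, *Actb* also exceeded *Tpm2*, *Actg1* exceeded *Acta2* and *Acta2* exceeded *Actc1*, while the remaining steps did not hold in every library. With the GENCODE length for *Tpm4* its mean was 65.5 TPM, above *Tpm3*, and these 2 genes still overlapped. In dCas9-KRAB-En5 the order was *Actb* (546), *Actg1* (366), *Tpm4* (90.7), *Tpm3* (57.2), *Tpm1* (35.5), *Tpm2* (5.03), *Acta2* (3.84), *Acta1* (2.89), *Actc1* (0.0520) and *Actg2* (0). There the steps from *Actg1* to *Tpm4*, *Tpm1* to *Tpm2*, *Acta1* to *Actc1* and *Actc1* to *Actg2* were free of overlap, the last at 1, 2 and 2 counts against 0, all within the floor of 3 counts. Compared within each library, *Actb* also exceeded *Actg1*, *Tpm4* exceeded *Tpm3* and *Tpm3* exceeded *Tpm1*, while the remaining steps did not hold in every library. With the GENCODE length *Tpm4* stood at 232, 244 and 51.7 TPM, and its step from *Actg1* (lowest library 213 TPM) was no longer free of overlap. *Acta1* led in dCas9-KRAB and was near the low end in dCas9-KRAB-En5, where the cytoplasmic actins led.

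Replicates varied in a shared way. Within dCas9-KRAB, replicate 1 held the lowest level of all 6 actins, of *Tpm2* and of *Tpm3*, and the highest of *Tpm1* and *Tpm4*. Its log ratio to replicates 2 and 3 over 9352 genes went with GC content (Spearman's rho -0.68 and -0.77, a description over genes of the same libraries). Against a median of 51.0% GC in exons, *Tpm1* and *Tpm4*, highest in replicate 1, have 50.6% and 47.1%. Of the 8 members lowest there, 6 have 53.1% (*Actg2*) to 57.4% (*Acta1*), but *Acta2* (49.9%) and *Tpm3* (49.7%) are below the median. With GC and length offsets, an alternative chosen after seeing the data, *Acta1* was at -9.45, *Tpm2* at -6.40, *Actb* at -0.29 and *Tpm4* at 1.22, and *Acta2* missed the cutoff (-5.32, edgeR adjusted p = 0.0114). That fit called 6.53% of genes lower and 4.23% higher.

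The genes that set the length of thin filaments and assemble them were next described, from a list of 15. Of these, 12 were listed and 11 tested, and 10 fell in dCas9-KRAB-En5, against 4.67% of all tested genes, with a median log2 fold change of -5.95 against 0.08, the same with the genes at 0 set to their bound. *Lmod2* and *Lmod3*, leiomodins that nucleate and lengthen muscle actin filaments, had 1973 and 2195 counts in dCas9-KRAB and none in dCas9-KRAB-En5, so that they were at least 390.0-fold and 434-fold lower (floor of 3 counts over the group, edgeR adjusted p = 0.000126 and 0.000104). *Nrap*, an anchor of nascent myofibrils, had 1036 and 4 counts, a 154-fold lower level over summed counts (adjusted p = 0.000281). Of the 11 tested genes, 8 (these 3, *Tmod1*, *Neb*, *Klhl40*, *Xirp1* and *Cap2*) had fewer than 3 dCas9-KRAB-En5 libraries over the filter cutoff. *Tmod1* had 2 such libraries, *Klhl40* and *Xirp1* had 1 each, and the others had none. The pass of these 8 genes thus relied on dCas9-KRAB, which the count and the median must be read with. The tested genes free of this were *Klhl41* at -5.02, *Cfl2* at -2.38 and *Tmod3* at 1.04. *Neb* (nebulin), *Klhl40*, *Klhl41*, *Xirp1*, *Tmod1*, *Cap2* and *Cfl2* (the muscle cofilin) fell too. The genes past *Nrap* were named after their values were seen. *Tmod3*, the tropomodulin found outside muscle, was at 1.04 (SE 0.48, adjusted p = 0.154). The list's count was 4 without dCas9-KRAB replicate 1 and 6 without replicate 2, where 1.43% and 2.02% of all genes were called lower.

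Troponin, the calcium switch that sits on tropomyosin, differed likewise. Of 8 subunit genes 7 were tested and 6 fell, against 4.67% of all tested genes, with a median of -8.09. *Tnnt3* was over the filter cutoff in 3 libraries of dCas9-KRAB and in 2 of dCas9-KRAB-En5. Its pass thus relied on dCas9-KRAB, which the count and the median must be read with. *Tnnc1*, the slow and cardiac calcium-binding subunit, stood at 2783 ± 346 TPM in dCas9-KRAB and 4.06 ± 0.251 TPM in dCas9-KRAB-En5 (SD, n = 3 each), with a log2 fold change of -9.48 (SE 0.72, edgeR adjusted p = 1.82e-05).

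Of 10 smooth muscle contractile genes, 9 were listed and 6 tested, and 1 fell, against 4.67% of all tested genes, with a median of -1.90. *Synpo2* and *Myl9* were over the filter cutoff in 3 libraries of dCas9-KRAB and in 2 of dCas9-KRAB-En5. Their pass thus relied on dCas9-KRAB, which the count and the median must be read with. *Myl9* was not called (-1.71, edgeR adjusted p = 0.256). The gene that fell was *Synpo2*, an actin-bundling protein of the Z-disc and of smooth muscle (-5.19, SE 0.92, edgeR adjusted p = 0.00385). *Smtn* (smoothelin) and *Cald1* (caldesmon) were at -2.17 and -2.09 (adjusted p = 0.0117 and 0.0233) and did not pass. *Synpo2* lost its call without dCas9-KRAB replicate 1 or 2, with scaling by total counts and with limma on log2(TPM + 1), and the count was 3 with the block, with DESeq2 or without dCas9-KRAB-En5 replicate 3, fits that also called more of all genes (6.79%, 8.66% and 14% lower).

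Of 30 genes that turn over cytoplasmic actin filaments, edgeR called 0 in either direction. This is close to the shares of all tested genes, 4.67% lower and 1.52% higher. No gene of the list passed the test, and the median was 0.04. The nearest were *Tmsb10* (thymosin β10, which sequesters actin monomers) at -2.11 (SE 0.49, adjusted p = 0.0137), *Diaph1* (a formin that elongates filaments) at 2.15 (SE 0.57, adjusted p = 0.0253) and *Enah* (which protects growing ends) at -1.87 (SE 0.52, adjusted p = 0.0312). *Tmsb10* ran from 1694 to 2308 TPM in dCas9-KRAB and 386 to 553 TPM in dCas9-KRAB-En5. Every dCas9-KRAB-En5 library thus lay below every dCas9-KRAB library, as for 19.7% of all tested genes. At an unadjusted p under 0.05 edgeR had 3 lower and 1 higher, and the share of all genes at that p is not given here. DESeq2 called 2 lower and 1 higher, against 8.66% and 5.88% of all genes. With limma on log2(TPM + 1) 1 was called lower, against 3.35% of all genes. The fit with the block called *Tmsb10* lower, as it did 6.79% of all genes. Without dCas9-KRAB-En5 replicate 3, edgeR called 6 of the 30 lower, where it called 14% of all genes lower.

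The 16 genes that fold and modify actin (the CCT chaperonin, prefoldin, and the modifying enzymes *Setd3* and *Naa80*) also had 0 called by edgeR. This is close to the shares of all tested genes, 4.67% lower and 1.52% higher. The median of the list was -0.08. DESeq2 called none, against 8.66% of all genes lower and 5.88% higher. With limma on log2(TPM + 1) none was called, against 3.35% and 0.223%. By edgeR 2 were higher at an unadjusted p under 0.05, and the share of all genes at that p is not given here. *Setd3*, the actin histidine methyltransferase, was at 1.41 (SE 0.49, adjusted p = 0.0686), *Naa80*, which acetylates the actin amino terminus, at 1.65 (SE 0.57, adjusted p = 0.0687) and *Cct3* at -0.92 (SE 0.43, adjusted p = 0.160). For *Setd3* and *Naa80* the groups overlapped.

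SRF and its cofactors, which drive actin genes through the CArG box, were not called by edgeR, DESeq2 or limma. By edgeR 4.67% of all tested genes were called lower and 1.52% higher, so no call among 3 genes is close to these shares. None of the 3 tested had an unadjusted p under 0.05, and *Myocd* was not listed. *Srf* stood at 11.4 to 48.6 TPM in dCas9-KRAB and 29.9 to 60.0 TPM in dCas9-KRAB-En5 (log2 fold change 0.48, SE 0.50, edgeR adjusted p = 0.538). *Mrtfa* was at 0.70 (SE 0.54, adjusted p = 0.393) and *Mrtfb* at 0.48 (SE 0.82, adjusted p = 0.716).

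**Figure D4:**
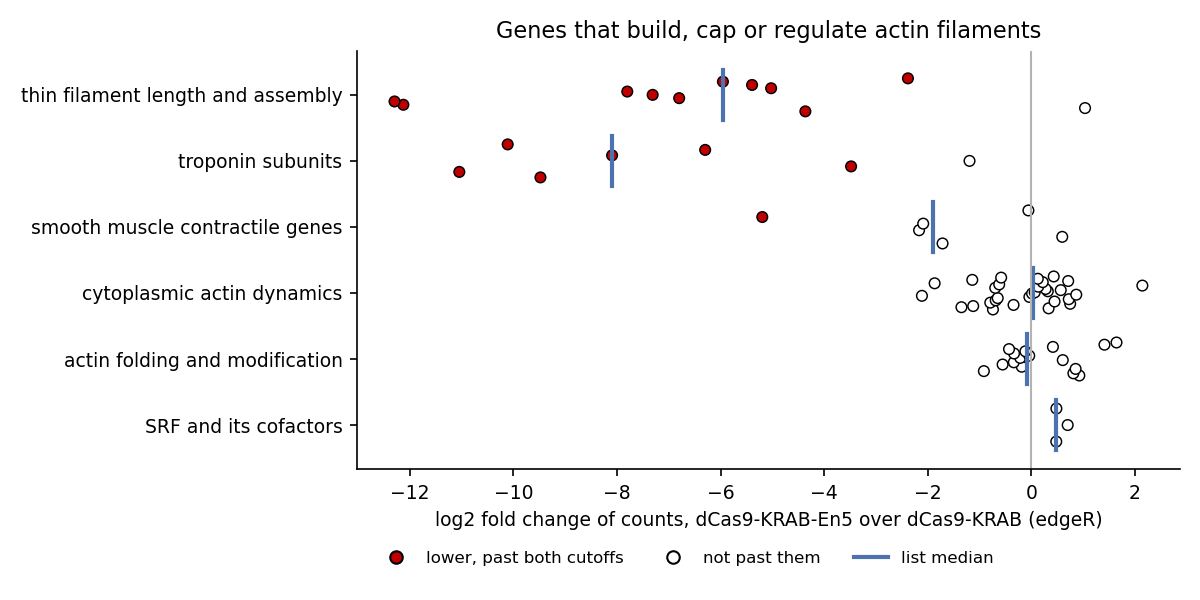
log2 fold change of counts (dCas9-KRAB-En5 over dCas9-KRAB, edgeR) of every tested gene of 6 lists, 1 point a gene, filled where called lower, with a bar at the list median. The filled points lie in the thin filament, troponin and smooth muscle lists. The cytoplasmic dynamics, folding and SRF lists hold open points only, from -2.11 (*Tmsb10*) to 2.15 (*Diaph1*).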

How the data were processed

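Poly(A) RNA of 6 libraries was sequenced by the authors as paired-end reads on an Illumina NovaSeq instrument, aligned to GRCm38/mm10 with HISAT2 2.2.1 and counted per gene with featureCounts. The authors deposited raw counts and TPM (counts divided by gene length, scaled to 1000000 per library). The annotation release and strand setting are not given in the sources used here. The gene length that the deposited TPM implies was within 1% of the GENCODE M21 exon length for 98.62% of 12933 genes (those annotated and counted in every library). Genes not listed in a library were taken as 0, and 23155 of 23231 genes were matched to a symbol.

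Counts of all genes were fitted with edgeR 4.0.16 in R 4.3.3 (TMM, filterByExpr with a minimum count of 10 and a total of 15, quasi-likelihood test, group alone in the model, Benjamini-Hochberg adjustment). Each SE is the absolute log2 fold change over the root of F. Alternatives were limma 3.58.1 on TPM (log2 with 1 or 0.1 added), DESeq2 1.42.0, other scalings, no filter, an adjusted p cutoff of 0.05, a replicate block, GC and length offsets, and each library left out. The fit was tested on simulated data with a spread below that estimated from the libraries. With the estimated spread it did not recover moderate changes, so a gene that missed the cutoffs is not shown to be unchanged. Same-numbered libraries, numbered in the labels, deviated together from their group means (r = 0.311, 0.304 and 0.375 over 14780 genes). Nothing in the labels states that the numbers mark shared cultures. The reported fit is therefore unpaired, and the replicate block is given as an alternative. Chi-square per degree of freedom between replicates was at least 110.2, far beyond sampling noise. Intervals of summed counts and floors cover counting error only, whereas the edgeR intervals include the spread between libraries.

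The members, gene lists and tests were chosen with earlier results of these data known. Genes named are the 10 members, *Myog*, and from each list the 3 of lowest adjusted p and any called higher, with 1 troponin. *Tpm3-rs7*, *Myod1*, *Myl9*, the genes that overlap a member, *Tmod3* and the other thin filament genes were named after their values were seen. Shares are each gene's TPM over the sum of its family in a library. Python 3 scripts searched motifs and shared words.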

Additional observations from a re-analysis of the deposited data

How the results depend on the processing

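Of the 9 tested members, 4 were called lower in the reported fit and 3 to 5 over 17 alternatives, and 0 were called higher in any. The GC and length offsets, the second *Tpm4* length and the *Actg2* bounds were chosen after seeing the data. *Acta1*, *Actc1* and *Tpm2* kept their call throughout. *Actg1* changed sign with GC and length offsets (0.0327) and with the replicate block added to them (0.0385). *Tpm3* was at -0.0509 with RLE factors, -0.0527 with DESeq2, -0.0205 with upper-quartile factors, -0.0251 without a filter, -0.31 with GC and length offsets and -0.29 with the block added, and between -0.23 and 0.20 with a library left out. The cause was not tested.

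Of all genes, 890 were called in the reported fit (671 lower, 219 higher), 1543 with the replicate block, 1542 with GC and length offsets, 2390 with DESeq2, 2198 without a filter, 586 with total counts (516 lower, 70 higher), 514 with limma on log2(TPM + 1), 2449 at an adjusted p of 0.05 and 222 to 3921 with a library left out (lowest without dCas9-KRAB replicate 1, highest without dCas9-KRAB-En5 replicate 3). Besides *Tpm1* and the list counts given here, the block changed no call of a member. The thin filament list had 6 called lower with total counts and 4 to 10 with a library left out. The smooth muscle list had 2 with upper-quartile factors or offsets, 0 with total counts or limma on log2(TPM + 1), 3 without a filter, with DESeq2, with the replicate block or at 0.05, and 0 to 3 with a library left out. The cytoplasmic dynamics list had 1 with total counts, without a filter, with the block, offsets, both together or either limma fit, 2 with DESeq2 or at 0.05, and 0 to 6 with a library left out.

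The striated actin share in dCas9-KRAB was 55.7% by counts, 71.7% without the smooth muscle actins in the total and 67.4% to 68.5% with a library left out. By counts, *Tpm2* held 58.4% of tropomyosin in dCas9-KRAB and *Tpm4* 37.5% in dCas9-KRAB-En5. Outliers were not tested, with 3 libraries a group. The 0 to 12 counts of *Actc1* and *Myog* in dCas9-KRAB-En5 limit how exactly their ratios are known.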

Other observations

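*Actb* is the reference gene of the study's quantitative PCR. In these libraries its TPM spanned 2.65-fold within dCas9-KRAB and 2.43-fold within dCas9-KRAB-En5, and its share of summed actin TPM was 17.3% ± 0.601 and 59.1% ± 2.38 (SD, n = 3 each). *Actg1* spanned 2.85-fold and 2.21-fold. *Tpm1* was the steadiest member in dCas9-KRAB (1.22-fold) but not in dCas9-KRAB-En5 (2.90-fold), where *Tpm2* was (1.74-fold).

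The TPM ratio of *Acta1* to *Acta2* was 12.8 ± 1.60 (SD, n = 3) in dCas9-KRAB. It was 3.002 in replicate 1 of dCas9-KRAB-En5, 3.29 in replicate 2 and 0.0259 in replicate 3, which had 8 counts of *Acta1*. *Acta2* spanned 10.9-fold within dCas9-KRAB-En5 and *Acta1* 25.5-fold, against 2.12-fold and 2.73-fold in dCas9-KRAB. No difference in these ratios was tested.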
